A study of Mus musculus with 15 samples.

Results

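The respiratory chain of the inner mitochondrial membrane was followed while MyoD mRNA converted mouse fibroblasts towards muscle. Its genes were chosen by a rule on names, with earlier results of these data known. They are the protein-coding genes whose symbols follow the patterns used for subunits of complexes I to V. Such patterns also take in related genes such as Cox7a2l, a factor that joins complexes III and IV. The rule found 98 genes among the 21959 protein-coding genes listed, 13 encoded by the mitochondrial genome and 85 by the nucleus. The 15 RNA-seq libraries came from 3 lines of primary mouse embryonic fibroblasts (MEFs), each grown from a single embryo of genotype Tg:Pax7-nGFP/C57BL6;DBA2, with 1 library per line in each of 5 conditions. MEFs were not transfected and were kept in iMPC medium, the medium for induced myogenic progenitor cells. The +MyoD cultures were transfected 4 times with synthetic mRNA of Myod1, a transcription factor that drives muscle formation, in iMPC medium with the interferon-binding protein B18R. The +MyoD+F/R/C cultures also received forskolin, which raises cAMP, RepSox, an inhibitor of the TGF-beta receptor, and CHIR99210, an inhibitor of GSK3. The last 2 conditions added the JNK inhibitor SP600125 (+MyoD+F/R/C+SP) or the JAK inhibitor CP690550 (+MyoD+F/R/C+CP). The labels give day 10 for every library, but the sources used here also place the untransfected MEFs at day 0, so time in culture cannot be told apart from transfection in comparisons with MEFs.

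Complexes I to IV pass electrons from NADH and succinate to oxygen and, except for complex II, pump protons out of the matrix, and complex V, the ATP synthase, uses the returning protons to make ATP. Complexes I, III, IV and V combine mitochondrial and nuclear subunits, while complex II is wholly nuclear, so the chain is built from the products of both genomes. Skeletal muscle is rich in mitochondria and uses muscle isoforms of several complex IV subunits, such as Cox6a2, Cox7a1 and Cox8b, in place of ubiquitous ones.

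The library totals lay between 29393872 and 41885769 estimated counts. Myod1 measured 0.113 to 0.556 CPM (counts scaled to a common library size) in MEFs and 787.4 to 3845 CPM in the 12 transfected libraries, where synthetic and endogenous mRNA were not separated. All 10 skeletal muscle fiber markers were called higher in +MyoD than in MEFs, and their summed level was 34.8 to 46.8 CPM in MEFs, 1282 to 2053 CPM in +MyoD and 5810 to 8951 CPM in +MyoD+F/R/C. In the same order, the 8 fibroblast markers summed to 5831 to 7272, 17540 to 49210 and 14120 to 23000 CPM, and the 6 replication markers to 1169 to 1302, 99.5 to 125.7 and 170.0 to 319.4 CPM. The 8 brown adipocyte markers summed to 12.1 to 13.3, 15.8 to 51.9 and 45.6 to 78.7 CPM, and their defining gene Ucp1 was at 0.0472 CPM or less in every library. Of the 7 brown adipocyte markers tested, 5 were called higher and 1 lower in +MyoD than in MEFs. With F/R/C added to +MyoD, 3 of the 7 were called higher and 1 lower. The 8 cardiomyocyte markers summed to 11.7 to 17.4, 91.3 to 165.4 and 520.7 to 1004 CPM. Of the 6 of them tested, 1 was called higher and 1 lower in +MyoD than in MEFs. The log2 fold change was below 0 in 4 of the 6 (median -0.68). With F/R/C added to +MyoD, 3 of the 6 were called higher and 0 lower. The 5 macrophage markers summed to 16.9 to 26.8, 12.5 to 22.5 and 6.88 to 10.4 CPM. Of the 4 red cell markers Hbb-bs was at 0 in all groups, and their sum of 0.170 to 0.322 CPM in MEFs and 54.3 to 188.9 CPM in +MyoD moved with Hba-a2, while Hba-a1 was at 0 in both groups. According to the paper, the synthetic mRNA carried the 3' untranslated region of an alpha globin gene. Reads of that region cannot be told apart here from red cell mRNA, so this sum is no measure of red cells. These marker levels moved with the conditions compared below, and their part in the results was not tested. In these bulk libraries, a change in the number of cells of a type and a change in mRNA per cell cannot be told apart.

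The summed mRNA of the 13 mitochondrial genes was higher once F/R/C was added, and that of the nuclear genes differed less between conditions. Their summed level was 14270, 15060 and 15980 CPM in the 3 lines of MEFs, 15190, 17440 and 18190 CPM in +MyoD, and 29460, 28520 and 27780 CPM in +MyoD+F/R/C. The 3 +MyoD+F/R/C libraries lay above all 6 libraries of MEFs and +MyoD, which overlapped each other. The summed level of the 85 nuclear genes was 7785, 8025 and 8112 CPM in MEFs, 6542, 7100 and 7048 CPM in +MyoD and 7720, 7301 and 7261 CPM in +MyoD+F/R/C. On this TMM scale MEFs were highest and +MyoD lowest, with no overlap between the 3 groups. As a share of all counts, the mitochondrial genes made up 1.31 to 1.42% of a MEF library, 1.43 to 1.80% of a +MyoD library and 2.98 to 3.10% of a +MyoD+F/R/C library, and the nuclear genes 0.699 to 0.730%, 0.617 to 0.699% and 0.762 to 0.813%. The summed TPM of the nuclear genes was 18180 to 18580 in MEFs, 18260 to 19940 in +MyoD and 20670 to 22020 in +MyoD+F/R/C. By the share of counts and by TPM the order of MEFs and +MyoD+F/R/C turned, and +MyoD+F/R/C lay above MEFs without overlap.

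**Figure D1:**
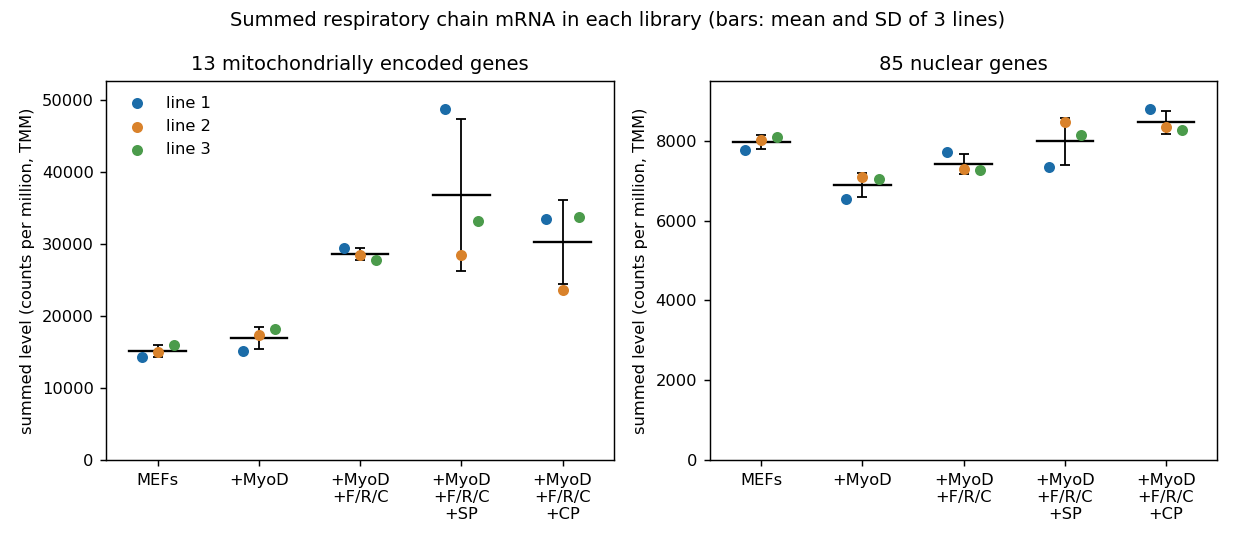
Summed level (CPM after TMM scaling, axes from 0) of the 13 mitochondrially encoded genes (left) and the 85 nuclear genes (right) in each library, by condition, with bars for the mean and SD of the 3 lines. The mitochondrial sums of the 3 +MyoD+F/R/C libraries sit between 27780 and 29460 CPM, above all MEF and +MyoD libraries, and 1 library with SP reaches 48790 CPM.

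The log2 ratio of mitochondrial to nuclear counts set both sums on one scale within a library. It was 0.87, 0.91 and 0.98 in MEFs, 1.22, 1.297 and 1.37 in +MyoD, and 1.93, 1.97 and 1.94 in +MyoD+F/R/C. The 3 groups did not overlap. Within the lines the ratio was higher by 0.34, 0.39 and 0.39 on the log2 scale in +MyoD than in MEFs (mean 0.37 ± 0.03, SD, n = 3), and by 0.72, 0.67 and 0.57 in +MyoD+F/R/C than in +MyoD (mean 0.65 ± 0.08, SD, n = 3). From MEFs to +MyoD+F/R/C the mean difference was 1.02 ± 0.06 (SD, n = 3). With summed TPM, which is per transcript length, the mean difference was 0.17 for +MyoD against MEFs and 0.63 for +MyoD+F/R/C against +MyoD. These ratios are descriptions and were not tested. Per length, the median mitochondrial gene stood at 1629 to 1962 TPM in MEFs and 3687 to 4016 TPM in +MyoD+F/R/C, and the median nuclear gene at 167.2 to 175.2 and 197.2 to 202.8 TPM.

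The largest changes of single genes were in nuclear isoforms, and the start regions of a pair of them are shown beside those of their ubiquitous partners because the muscle isoform of each pair rose and the partner was not called. RefSeq start regions on GRCm38.p6 were matched by symbol for 66 of the 85 nuclear genes. Those of Cox6a2, Cox4i2 and Ndufa4l2 were not among them. Each run covers 250 bases before and 50 bases after the start of transcription, in the direction of the gene. Capitals mark matches on either strand to 6 motifs: the E-box CANNTG bound by MyoD and related factors, the letters CTANNNNTA of MEF2-type sites, the ETS core CCGGAAG, the NRF1 letters GCGCATGCG, the ERR letters TCAAGGTCA and the TATA box letters TATAAA. Cox8b (chr7:140900397-140900696, minus strand) held CAGCTG E-boxes that begin 19 bases before the start and at base 17 of the transcript, and TATAAA from base 5. Cox8a (chr19:7217567-7217866, minus strand) held the ETS letters from 5 bases before the start and from base 33 of the transcript, and an E-box from 102 bases before the start. Cox7a1 (chr7:30183921-30184220, plus strand) and Cox7a2 (chr9:79759804-79760103, minus strand) each held 1 E-box and 1 MEF2-type match, which did not overlap. The pair of Cox6b2, which also rose, and Cox6b1, which was not called, is not printed. Cox6b2 held no E-box and a MEF2-type match from 220 bases before the start. Cox6b1 held E-boxes from 237 and 209 bases before the start and the ETS letters from 28 bases before it.
Cox8b: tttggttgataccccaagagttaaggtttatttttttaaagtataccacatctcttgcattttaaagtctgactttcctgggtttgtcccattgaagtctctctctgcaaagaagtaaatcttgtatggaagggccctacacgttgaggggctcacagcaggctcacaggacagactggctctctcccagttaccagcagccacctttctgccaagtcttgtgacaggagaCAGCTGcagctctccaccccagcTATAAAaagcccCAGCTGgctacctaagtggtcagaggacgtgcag
Cox8a: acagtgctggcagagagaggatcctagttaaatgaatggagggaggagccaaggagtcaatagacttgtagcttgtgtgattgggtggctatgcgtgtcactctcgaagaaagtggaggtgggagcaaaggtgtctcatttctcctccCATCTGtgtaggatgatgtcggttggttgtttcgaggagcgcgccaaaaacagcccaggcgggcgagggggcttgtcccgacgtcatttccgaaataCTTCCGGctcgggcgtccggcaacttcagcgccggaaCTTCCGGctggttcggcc
Cox7a1: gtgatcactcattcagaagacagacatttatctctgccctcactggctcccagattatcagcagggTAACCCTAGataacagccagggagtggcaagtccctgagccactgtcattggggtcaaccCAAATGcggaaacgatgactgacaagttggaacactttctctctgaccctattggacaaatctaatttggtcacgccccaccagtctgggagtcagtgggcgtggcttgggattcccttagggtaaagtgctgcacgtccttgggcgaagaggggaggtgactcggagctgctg
Cox7a2: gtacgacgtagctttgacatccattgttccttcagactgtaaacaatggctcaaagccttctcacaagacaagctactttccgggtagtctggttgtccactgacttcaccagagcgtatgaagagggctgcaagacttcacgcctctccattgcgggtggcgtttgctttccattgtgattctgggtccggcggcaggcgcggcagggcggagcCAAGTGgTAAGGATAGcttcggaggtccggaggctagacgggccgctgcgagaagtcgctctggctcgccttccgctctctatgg

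The start regions of the muscle isoforms held fewer CpG pairs than those of their partners, 2 in Cox8b against 19 in Cox8a and 7 in Cox7a1 against 20 in Cox7a2. The median was 19 CpG pairs over the 71 start regions matched to nuclear respiratory chain genes, some with more than 1, and 7 over all 32851 start regions. The ETS letters were held by 22.5% and 8.86% of these 2 sets, the NRF1 letters by 11.3% and 1.75% and the ERR letters by 2.82% and 0.423%. The E-box letters were held by 67.6% and 72.3%, the MEF2-type letters by 15.5% and 21.04% and the TATA letters by 11.3% and 13.6%. A match of letters is a description and not a bound site.

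The comparison of +MyoD with MEFs asks how the chain differed after transfection with MyoD mRNA. No group was transfected without this mRNA, so its effect cannot be told apart from that of transfection itself or of B18R. After a filter on low counts 95 of the 98 genes were tested, 13 mitochondrial and 82 nuclear. Cox8c had no count in any library, Cox7b2 had counts in 1 library only and a second locus of the symbol Atp5o was near 0. A gene was called when its adjusted p over all 19331 genes (edgeR's quasi-likelihood test, Benjamini-Hochberg adjustment) was at most 0.05 and its log2 fold change (log2FC) above 0.5 in size. Of the nuclear genes 10 were called higher and 12 lower (12.2 and 14.6% of those tested), and of the mitochondrial genes 1 was called higher and 1 lower. Over all genes tested 22.8% were called higher and 18% lower. The median log2FC was -0.04 for the nuclear and 0.12 for the mitochondrial genes, against 0.12 for all genes. With library totals alone as the scale, 10 nuclear genes were called higher and 7 lower, against 23.97% and 16.5% of all genes.

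The nuclear genes that rose were led by subunits that replace a ubiquitous partner in particular tissues or states. Cox8b (chr7:140898945-140900446), the heart and muscle form of subunit VIII of complex IV, had no count in the MEF libraries and 0.752, 0.145 and 1.66 CPM in +MyoD. Against a floor of 3 counts over the MEF group its level was at least 31.0-fold higher (adjusted p = 2.10e-04). Ndufa4l2 (chr10:127514967-127517154), a hypoxia-inducible relative of Ndufa4, measured 0.111, 0.311 and 0.0878 CPM in MEFs and 0.501, 46.7 and 12.3 CPM in +MyoD (log2FC 6.84 ± 1.27, SE, adjusted p = 3.81e-04). Line 1 had by far the lowest level in +MyoD and line 2 the highest. The same order of lines was seen in Cox4i2 (chr2:152754173-152765037), the oxygen-responsive form of subunit IV, with 0.139, 0.0849 and 0.234 CPM in MEFs and 0.157, 8.24 and 2.05 CPM in +MyoD (log2FC 4.49 ± 1.07, SE, adjusted p = 0.00294). The groups overlapped through line 1, whose level in +MyoD was below that of a MEF library.

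Cox6b2 (chr7:4751792-4753094), best known as the testis form of subunit VIb, went from 5.67, 3.03 and 5.27 CPM to 43.4, 67.1 and 73.9 CPM (log2FC 3.72 ± 0.25, SE, adjusted p = 3.33e-08). Cox6a2 (chr7:128205435-128206387), the heart and muscle form of subunit VIa, went from 0.139, 0.396 and 0.381 CPM to 1.19, 3.52 and 7.33 CPM (log2FC 3.71 ± 0.57, SE, adjusted p = 7.54e-05). In both genes all +MyoD libraries lay above all MEF libraries. Cox7a1 (chr7:30184144-30186078), the muscle form of subunit VIIa, went from 0.334, 0.340 and 0.234 CPM to 0.470, 2.15 and 1.01 CPM (log2FC 1.99 ± 0.61, SE, adjusted p = 0.0142). This call rested on few reads and was kept in 11 of 14 alternatives, with losses that include those without +MyoD replicate 2 or MEFs replicate 3.

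The other nuclear genes that rose, 4 in number, belong to complex I. Ndufv3 (chr17:31520115-31531331), a subunit of the NADH-oxidising arm, stood at 20.1, 17.4 and 18.6 CPM in MEFs and 29.6, 69.6 and 62.8 CPM in +MyoD (log2FC 1.53 ± 0.22, SE, adjusted p = 4.89e-05). Both of its main transcripts were higher. The one of 493 bases had 34.3, 33.0 and 42.2 TPM in MEFs and 62.2, 152.2 and 120.8 TPM in +MyoD, and the one of 1582 bases 12.1, 8.15 and 8.12 TPM and then 18.2, 37.1 and 42.1 TPM. Ndufa6 (1.05 ± 0.14, SE), Ndufa13 (0.75 ± 0.11, SE) and Ndufa11 (0.59 ± 0.16, SE), accessory subunits, had log2FC of the size given and no overlap between the groups. Exons of Ndufa13, Ndufa11, Ndufa4l2 and Cox6a2 overlap those of neighbouring genes, and the strand setting of the counting is not given in the sources used here, so reads of such neighbours may be included.

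The 12 nuclear genes that fell each lay lower in all 3 +MyoD libraries than in all MEF libraries. Of the 17 complex V genes tested 5 were among them and none rose. Atp5b, the catalytic beta subunit of the ATP synthase and the nuclear member with the highest level per length (1580 ± 103.4 TPM in MEFs, SD, n = 3), measured 1282, 1366 and 1369 CPM in MEFs and 960.5, 814.0 and 804.3 CPM in +MyoD (log2FC -0.64 ± 0.11, SE, adjusted p = 1.82e-04). Atp5a1, Atp5g3, Atp5f1 and Atp5c1 had log2FC from -0.62 to -0.50. The largest fall was that of Cox5a, a complex IV subunit, from 97.2, 104.0 and 108.3 CPM to 62.7, 60.8 and 63.6 CPM (log2FC -0.73 ± 0.11, SE, adjusted p = 8.30e-05). Ndufs1, the large iron-sulfur subunit of complex I, had 125.5, 122.4 and 120.5 CPM and then 91.4, 65.0 and 73.6 CPM (log2FC -0.68 ± 0.13, SE, adjusted p = 4.39e-04). In complex I Ndufa12 (log2FC -0.65 ± 0.13, SE) and Ndufa9 (-0.54 ± 0.11, SE) also fell, as did Uqcrb (-0.56 ± 0.16, SE) and Uqcrc2 (-0.53 ± 0.11, SE) in complex III. The calls of Atp5c1, Atp5f1, Ndufa9, Uqcrb and Uqcrc2 were lost with library totals alone. Leaving out +MyoD replicate 1 also ended those of Atp5c1, Ndufa9 and Uqcrc2, MEFs replicate 1 those of Atp5f1 and Uqcrb, MEFs replicate 2 that of Ndufa9, +MyoD replicate 2 that of Atp5f1 and +MyoD replicate 3 that of Atp5c1.

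In complex II, which oxidises succinate, 1 of 4 genes was called. Sdhd, a membrane anchor, fell from 107.0, 119.9 and 118.0 CPM to 67.4, 85.2 and 70.6 CPM (log2FC -0.63 ± 0.12, SE, adjusted p = 5.67e-04). The flavoprotein Sdha (log2FC -0.13 ± 0.09, SE), the iron-sulfur subunit Sdhb (-0.31 ± 0.12, SE) and the other anchor Sdhc (0.23 ± 0.11, SE) were not called.

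Among the mitochondrial genes mt-Co1 and mt-Nd3 went opposite ways. For mt-Co1 (chrM:5328-6872), the catalytic subunit of complex IV, MEFs held 3809, 3888 and 4168 CPM and +MyoD 4320, 7333 and 6258 CPM (log2FC 0.59 ± 0.18, SE, adjusted p = 0.0154). This call was lost without MEFs replicate 1, MEFs replicate 2 or +MyoD replicate 2. The complex I gene mt-Nd3 (chrM:9459-9806) had 137.5, 164.7 and 164.5 CPM in MEFs and 84.4, 70.7 and 88.3 CPM in +MyoD (log2FC -0.94 ± 0.24, SE, adjusted p = 0.00523), and passed under all 14 alternatives run for it. The other 11 genes had log2FC from -0.56 to 0.34 and were not called. Of these, mt-Co3, mt-Nd1, mt-Atp6 and mt-Atp8 lay lower and mt-Nd4l, mt-Nd5 and mt-Nd6 higher in all +MyoD than in all MEF libraries. Such a lack of overlap was common among the 82 nuclear genes, with 19 above and 32 below, and its share of all genes was not counted.

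**Figure D2:**
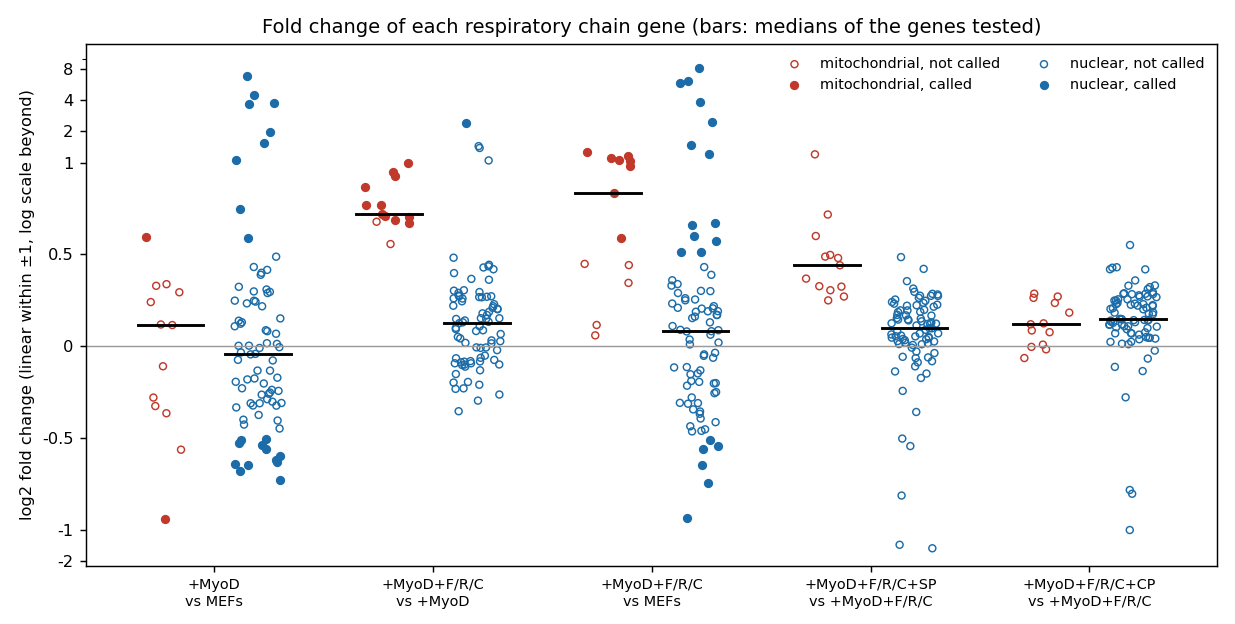
Log2 fold change of each respiratory chain gene tested (13 mitochondrial, 82 nuclear) in 5 comparisons of conditions, on an axis that is linear within 1 of 0 and logarithmic beyond, with filled points for called genes, open points for the rest and bars at the medians. Cox8b, at 0 counts in MEFs, is not drawn in the comparisons with MEFs. In +MyoD+F/R/C against +MyoD all 13 mitochondrial genes lie above 0.5 with a median of 0.72, and the nuclear median is 0.13.

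The comparison of +MyoD+F/R/C with +MyoD, which shares the +MyoD libraries with the one above, asks what the 3 compounds added. In all 13 mitochondrial genes the +MyoD+F/R/C libraries lay above the +MyoD libraries, and 11 genes were called higher. Of the 82 nuclear genes 18 lay above and 4 below without overlap. The share of all genes without overlap was not counted. Of the 82 nuclear genes 1 was called higher and 0 lower. Over all genes tested 10.9% were called higher and 8.39% lower. The median log2FC was 0.72 for the mitochondrial and 0.13 for the nuclear genes, against 0.03 for all genes. The number of mitochondrial calls fell below 11 whichever 1 library of these groups was left out. It was 7 without +MyoD replicate 2, +MyoD+F/R/C replicate 2 or +MyoD+F/R/C replicate 3, and 7 with counts made from TPM. Of all genes 9.40, 9.15, 9.26 and 8.66% were called higher in these 4 settings.

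The 3 mitochondrial genes of complex IV rose. mt-Co2 had 1343, 1384 and 1619 CPM in +MyoD and 2943, 2819 and 2627 CPM in +MyoD+F/R/C (log2FC 0.95 ± 0.18, SE, adjusted p = 0.00124). mt-Co3 had 1510, 1317 and 1399 CPM and then 2920, 2395 and 2383 CPM (log2FC 0.87 ± 0.21, SE, adjusted p = 0.00834). mt-Co1 reached 9152, 10190 and 9191 CPM (log2FC 0.67 ± 0.18, SE, adjusted p = 0.0160), a call that was lost without +MyoD replicate 1 or +MyoD+F/R/C replicate 2 and in a fit of these 2 groups alone. The sole mitochondrial gene of complex III, mt-Cytb, encodes cytochrome b and went from 1587, 1648 and 2246 CPM to 3400, 3511 and 3513 CPM (log2FC 0.93 ± 0.18, SE, adjusted p = 0.00163). mt-Co2, mt-Co3 and mt-Cytb passed under all 14 alternatives run for them.

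In complex I 6 of the 7 mitochondrial genes rose. The largest change was that of mt-Nd3, with 84.4, 70.7 and 88.3 CPM in +MyoD and 197.6, 144.6 and 144.4 CPM in +MyoD+F/R/C (log2FC 0.999 ± 0.24, SE, adjusted p = 0.00825). The latter overlapped the MEF libraries (log2FC against MEFs 0.06, 95% confidence interval -0.46 to 0.58). mt-Nd6 (chrM:13552-14070), unlike the other 12 genes, is read from the light strand of the mitochondrial genome. It overlaps the end of mt-Nd5 (chrM:11742-13565) on the other strand. As the strand setting of the counting is not given, reads of the other strand may be counted to mt-Nd6. It went from 328.8, 344.0 and 358.4 CPM to 600.8, 591.0 and 562.6 CPM (log2FC 0.77 ± 0.19, SE, adjusted p = 0.00833). mt-Nd1 (log2FC 0.77 ± 0.24, SE), mt-Nd4 (0.72 ± 0.23, SE), mt-Nd4l (0.71 ± 0.20, SE) and mt-Nd5 (0.69 ± 0.18, SE) were called. Of 14 alternatives the call was kept in 13 for mt-Nd5, in 12 for mt-Nd4l (lost without +MyoD replicate 2 or +MyoD+F/R/C replicate 3), in 8 for mt-Nd1 (lost without any 1 of the 6 libraries but +MyoD replicate 1) and in 7 for mt-Nd4 (lost without any 1 of the 6 libraries). The losses of mt-Nd5, mt-Nd1 and mt-Nd4 include that with counts made from TPM. mt-Nd2 had 888.8, 612.2 and 865.9 CPM and then 1330, 1029 and 1122 CPM and did not pass (log2FC 0.56 ± 0.26, SE, adjusted p = 0.153). Of the mitochondrial genes of complex V, mt-Atp6 rose from 1185, 1181 and 1287 CPM to 2224, 1801 and 1946 CPM (log2FC 0.71 ± 0.23, SE, adjusted p = 0.0388), a call kept in 7 of 14 alternatives and lost without any 1 of the 6 libraries and with counts made from TPM. mt-Atp8, which overlaps mt-Atp6 on the genome, had 46.5, 28.1 and 38.2 CPM and then 69.8, 54.7 and 55.9 CPM and did not pass (log2FC 0.68 ± 0.48, SE, adjusted p = 0.367).

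**Figure D3:**
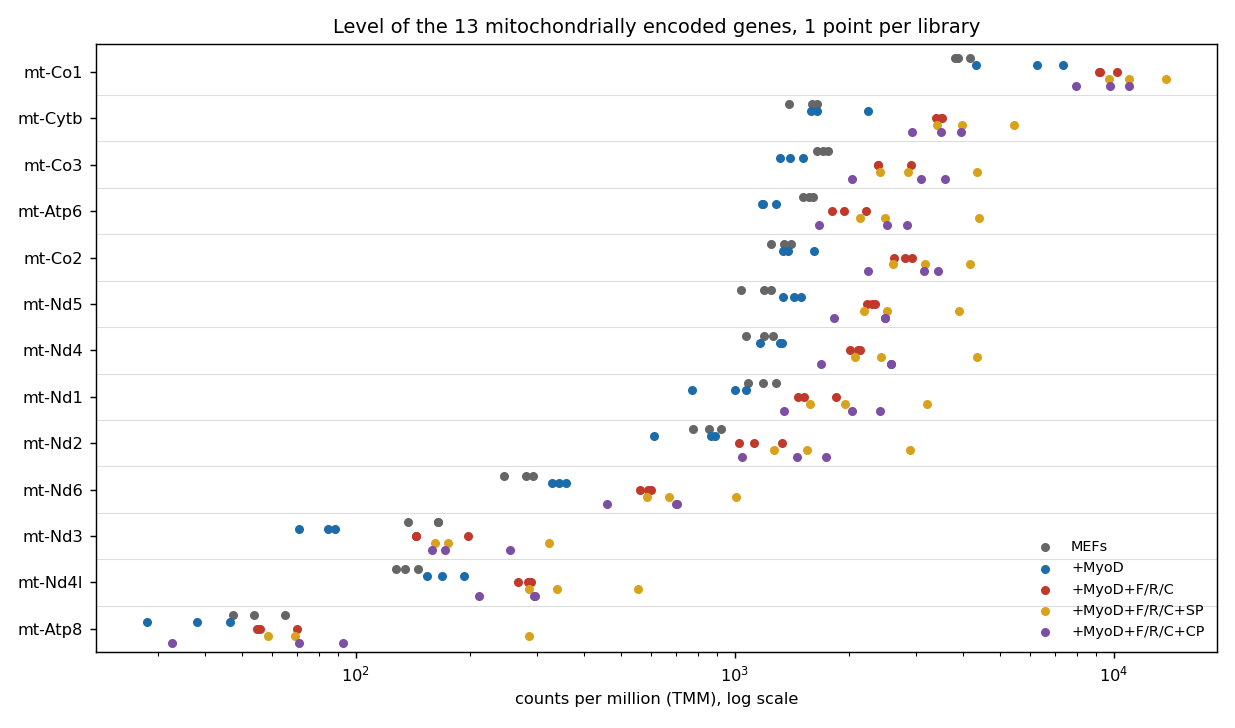
Level (CPM after TMM scaling, logarithmic axis) of each of the 13 mitochondrially encoded genes, with 1 point per library coloured by condition. In every gene the 3 +MyoD+F/R/C points lie to the right of the 3 +MyoD points, and 1 library with SP is the highest in each gene, at 286.9 CPM for mt-Atp8.

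The 1 nuclear gene that rose was the muscle isoform Cox6a2, from 1.19, 3.52 and 7.33 CPM to 18.9, 21.4 and 23.3 CPM (log2FC 2.40 ± 0.48, SE, adjusted p = 0.00203), and it passed under all 14 alternatives run. The nuclear genes next by p were Atp5o, Atp5g3 and Ndufb11 on the higher side, with log2FC from 0.40 to 0.44, and Cox6a1, Cox5a and Ndufb4 on the lower side, with log2FC from -0.35 to -0.21, none of them called. The first 3, with Uqcrh, Ndufb5, Uqcr11 and Cox7c, passed the adjusted p and missed only the threshold on size. These 7 nuclear genes had log2FC from 0.36 to 0.44. Of all 19331 genes 497 missed only that threshold. Cox6a1, Cox5a and Ndufb4 did not pass the adjusted p. The complex II genes had log2FC from -0.15 to 0.09 and were not called. When library totals alone set the scale, 8 nuclear genes were called higher, against 14.5% of all genes, and the median of all genes moved from 0.03 to 0.21.

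From MEFs to +MyoD+F/R/C 8 of the 13 mitochondrial genes were called higher and 0 lower, and 14 nuclear genes were called higher and 6 lower. Over all genes tested 26.6% were called higher and 21.6% lower. The median log2FC was 0.83 for the mitochondrial and 0.09 for the nuclear genes, against 0.19 for all genes. mt-Co1 (log2FC 1.27 ± 0.19, SE), mt-Cytb (1.17 ± 0.18, SE), mt-Nd6 (1.096 ± 0.19, SE), mt-Co2 (1.07 ± 0.18, SE) and mt-Nd4l (1.04 ± 0.20, SE) had the largest rises, and mt-Nd5, mt-Nd4 and mt-Co3 were called at 0.59 to 0.98. The call of mt-Co3 was kept in 8 of 14 alternatives and was lost with counts made from TPM and without any 1 of the 6 libraries but +MyoD+F/R/C replicate 2, while the other 7 calls were kept in all 14. Per length mt-Co1 stood at 4767 ± 238.4 TPM in MEFs, where mt-Atp6 (5391 ± 347.3 TPM) and mt-Co3 (4771 ± 290.7 TPM) ranked above it and mt-Co3 overlapped it. In +MyoD+F/R/C mt-Co1 ranked first at 13370 ± 661.9 TPM, above mt-Co2 at 10740 ± 389.0 TPM without overlap (SD, n = 3 for each).

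Of the nuclear genes Cox8b was at least 75.9-fold higher than the floor of the MEF group. Ndufa4l2 (log2FC 8.22 ± 1.296, SE), Cox6a2 (6.11 ± 0.60, SE), Cox4i2 (5.93 ± 1.11, SE) and Cox6b2 (3.88 ± 0.25, SE) followed, all without overlap. Cox7a1, Ndufv3, Ndufa6 and Ndufa13 were called at log2FC from 0.66 to 2.47. Uqcrh and Uqcr11 of complex III, Cox7a2l, a factor that joins complexes III and IV, Ndufb11 of complex I and Atp5e of complex V were called at log2FC from 0.51 to 0.67. Of these, Uqcr11 kept its call in 8 and Atp5e in 7 of 14 alternatives, both losing it without MEFs replicate 1, MEFs replicate 2 or +MyoD+F/R/C replicate 1 and Atp5e also without +MyoD+F/R/C replicate 2. Ndufb11 lost its call without +MyoD+F/R/C replicate 1. The genes that fell were Cox5a (log2FC -0.93 ± 0.11, SE, adjusted p = 5.77e-06), Ndufs1, Atp5b, Uqcrq, Sdhd and Uqcrc2, the last 5 with log2FC from -0.74 to -0.51. Uqcrq and Uqcrc2 each kept the call in 10 of 14 alternatives, Uqcrq losing it without MEFs replicate 2, MEFs replicate 3 or +MyoD+F/R/C replicate 2 and Uqcrc2 without MEFs replicate 1. With library totals alone 23 nuclear genes were called higher and Cox5a alone lower, against 32.1% and 15.7% of all genes. The median of all genes then moved from 0.19 to 0.43. Without +MyoD+F/R/C replicate 1 the split of the nuclear genes was 11 higher and 12 lower, against 23.45% and 20.75% of all genes.

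Per length, in TPM, the isoforms that rose stayed below their partners. Cox6a2 made up 0.115, 0.286 and 0.263% of the TPM of Cox6a1 and Cox6a2 together in MEFs, 0.786, 1.64 and 4.10% in +MyoD and 11.7, 13.3 and 14.4% in +MyoD+F/R/C. The 3 groups did not overlap. Cox7a1 made up 0.410 to 0.877% of its pair with Cox7a2 in MEFs, 1.40 to 5.89% in +MyoD and 2.79 to 5.01% in +MyoD+F/R/C, and the last 2 groups overlapped. Cox8b was at 0 in MEFs and made up 0.182 to 2.67% of its pair with Cox8a in +MyoD and 1.49 to 4.99% in +MyoD+F/R/C, again with overlap. Cox6b2 took the largest share in TPM, with 2.13 to 5.41% of its pair with Cox6b1 in MEFs, 29.2 to 37.2% in +MyoD and 31.5 to 38.1% in +MyoD+F/R/C. Ndufa4l2 varied most between lines, with 0.291, 22.0 and 6.96% of its pair with Ndufa4 in +MyoD and 22.1, 30.4 and 8.14% in +MyoD+F/R/C. By counts, which are not per length, the shares of Ndufa4l2 in +MyoD+F/R/C were 37.7, 51.9 and 14.7%, so that it passed Ndufa4 in line 2. Cox4i2 made up 4.00, 5.40 and 1.31% of its pair with Cox4i1 in +MyoD+F/R/C. The partners Cox4i1, Cox6a1, Cox6b1, Cox7a2, Cox8a and Ndufa4, and Cox7b, had log2FC from -0.42 to 0.42 in +MyoD against MEFs and from -0.35 to 0.27 in +MyoD+F/R/C against +MyoD, and none was called in either. In +MyoD against MEFs Cox6a1 (0.42, adjusted p = 0.0271), Cox7a2 (-0.31, 0.0188) and Ndufa4 (-0.42, 0.0138) missed only the threshold on size. Cox4i1, Cox6b1, Cox8a and Cox7b did not pass the adjusted p either.

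**Figure D4:**
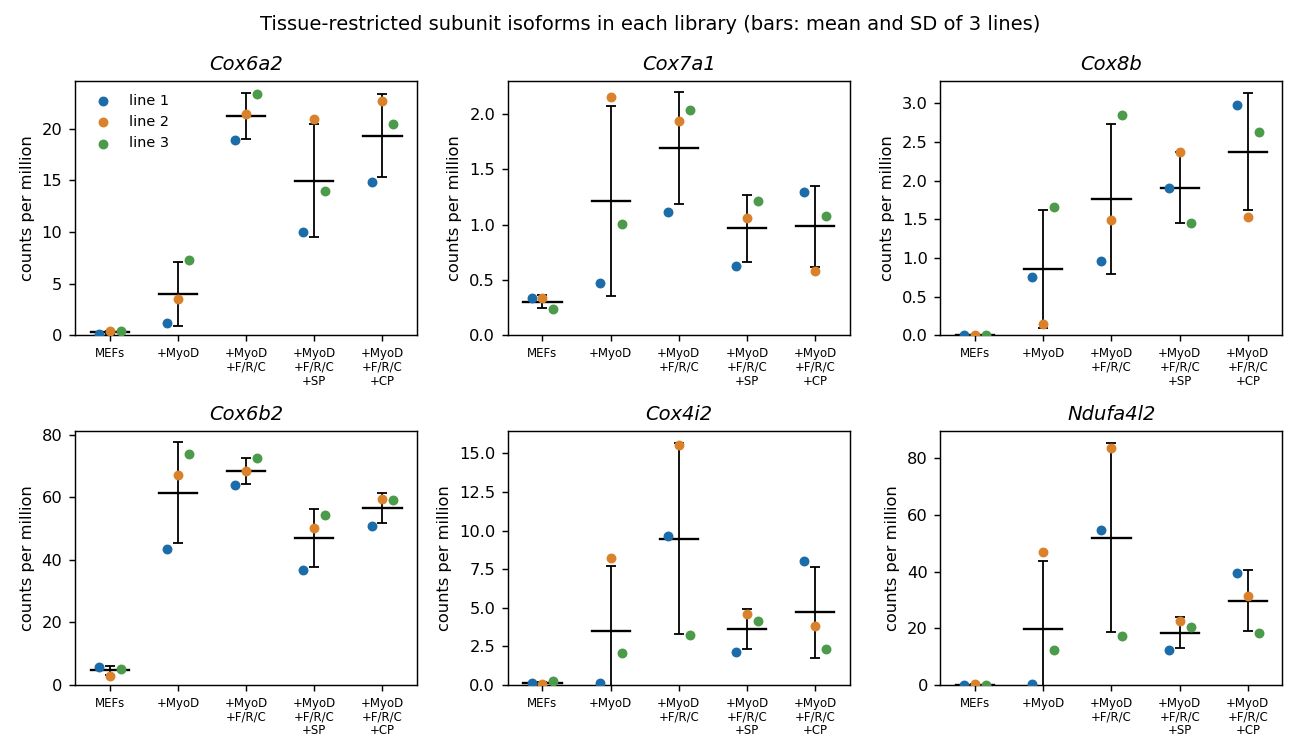
Level (CPM after TMM scaling) of tissue-restricted or inducible subunit isoforms in each library, by condition, with points for the 3 MEF lines and bars for their mean and SD. Cox6a2 is at 18.9 to 23.3 CPM in +MyoD+F/R/C, Cox6b2 is high from +MyoD on, and Cox4i2 and Ndufa4l2 spread widely between lines.

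The addition of SP or CP to +MyoD+F/R/C asks what inhibition of JNK or JAK changed on top of the 3 compounds. No member was called in these comparisons by edgeR or by DESeq2. For SP edgeR called 0% of all genes in either direction and DESeq2 called 49 higher and 17 lower of 28473. At an unadjusted p under 0.05 edgeR had 1280 of the 19331 genes, among them 5 mitochondrial and 14 nuclear members. For CP it called 0% higher and 0.0362% lower (DESeq2 76 and 125 genes), with 1529 genes, 0 mitochondrial and 18 nuclear members at an unadjusted p under 0.05. For CP against SP it called 0% higher and 0.197% lower (DESeq2 5 and 95 genes), with 775 genes, 2 mitochondrial members and 1 nuclear member at an unadjusted p under 0.05. The counts at an unadjusted p moved with single libraries. For SP the mitochondrial count was 0 without SP replicate 1 or +MyoD+F/R/C replicate 2, 12 without SP replicate 2 and 3 without +MyoD+F/R/C replicate 3, and the nuclear count was 8 when SP replicate 2, SP replicate 3 or +MyoD+F/R/C replicate 3 was left out and 5 when +MyoD+F/R/C replicate 2 was. For CP the nuclear count was 4 without CP replicate 1, and it was 5 or 11 when replicate 2 or 3 of +MyoD+F/R/C was left out. Between CP and SP the mitochondrial count ranged from 0 to 8 and the nuclear count from 0 to 7, both highest without SP replicate 2. The comparisons of SP and of CP share the +MyoD+F/R/C libraries. The brown adipocyte markers summed to 128.6 to 151.8 CPM with SP, above the 45.6 to 78.7 CPM of +MyoD+F/R/C without overlap, and to 69.8 to 95.3 CPM with CP. Of the 7 of them tested none was called with SP, and log2FC ran from -1.59 to 2.17, with 5 above and 2 below 0. The macrophage markers summed to 12.1 to 22.9 CPM with CP, above the 6.88 to 10.4 CPM of +MyoD+F/R/C without overlap, and to 9.30 to 9.96 CPM with SP. None of the 5 macrophage markers was called with CP, and 4 had a log2FC above and 1 below 0. The sums of the other marker lists overlapped those of +MyoD+F/R/C with both inhibitors, and the part of these markers in the results was not tested.

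With SP the 13 mitochondrial genes had log2FC from 0.25 to 1.2, and 1 library moved this size. Their summed level was 48790, 28520 and 33190 CPM in the 3 lines. Line 1 lay far above the others and had the highest level of all 15 libraries in each of the 13 genes. The median log2FC was 0.44 with all libraries and 0.0952 when this one was left out. In it mt-Atp8 stood at 286.9 CPM, against at most 92.3 CPM in the other libraries, and mt-Nd2 at 2899 CPM, against at most 1739 CPM. The log2 ratio of mitochondrial to nuclear counts was 2.73, 1.75 and 2.02 with SP and differed from +MyoD+F/R/C by 0.80, -0.21 and 0.09 within the lines. With CP the mitochondrial sums were 33500, 23620 and 33820 CPM and the log2 ratio 1.93, 1.502 and 2.03, differing by -0.00, -0.46 and 0.10 within the lines. The lines did not share a direction of this ratio with either inhibitor. The summed level of the nuclear genes was 8801, 8342 and 8265 CPM with CP, above all +MyoD+F/R/C libraries, and the log2 difference within the lines was 0.19, 0.19 and 0.19. With SP it was 7340, 8467 and 8162 CPM, overlapping +MyoD+F/R/C, with differences of -0.07, 0.21 and 0.17. These sums were not tested.

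Most nuclear genes had a log2FC above 0 with each inhibitor, and none was called. Their median log2FC was 0.10 with SP and 0.15 with CP, and 63 and 74 of the 82 were above 0, against 9641 and 9646 of all 19331 genes. With SP the members with the smallest p on the higher side were Ndufa12 (log2FC 0.49, 95% confidence interval 0.22 to 0.75, adjusted p = 0.499), Cox7b (0.31, 0.08 to 0.55) and Ndufs1 (0.35, 0.08 to 0.63). On the lower side they were Ndufa6 (-0.36, -0.65 to -0.06), Cox6b2 (-0.54, -1.01 to -0.07) and Ndufa4l2 (-1.49, -3.32 to 0.34). With CP they were Ndufc2 (0.43, 0.17 to 0.69, adjusted p = 0.281), Atp5g3 (0.36, 0.11 to 0.61) and Uqcrq (0.55, 0.16 to 0.95) on the higher side and Cox7a1 (-0.78, -2.001 to 0.44), Cox6b2 and Cox4i2 on the lower side.

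The muscle isoform Cox6a2 measured 10.04, 20.9 and 13.98 CPM with SP and 14.8, 22.7 and 20.4 CPM with CP. Its log2FC against +MyoD+F/R/C was -0.50 (95% confidence interval -1.46 to 0.46) and -0.13 (-1.09 to 0.82). Its share of the Cox6a pair was 8.36 ± 1.65% with SP and 10.03 ± 1.94% with CP, against 13.1 ± 1.37% in +MyoD+F/R/C (SD, n = 3 for each). Between CP and SP the log2FC of mt-Co1 was -0.26 (95% confidence interval -0.65 to 0.13), that of mt-Nd4l -0.55 (-0.98 to -0.12) and that of Ndufc2, the nuclear member with the smallest p, 0.28 (0.02 to 0.54). These intervals do not show that the compounds act alike.

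The genes that serve the mitochondrial genome were set beside its transcripts. Tfam, which packages mitochondrial DNA and starts its transcription, measured 36.0, 39.1 and 34.5 CPM in MEFs, 17.5, 16.6 and 17.6 CPM in +MyoD and 24.5, 23.8 and 25.5 CPM in +MyoD+F/R/C. It fell with +MyoD (log2FC -1.08 ± 0.13, SE, adjusted p = 5.60e-06) and rose with F/R/C (log2FC 0.51 ± 0.13, SE, adjusted p = 0.00875), to a level below that of MEFs (log2FC -0.57 ± 0.13, SE, adjusted p = 0.00123). Of the 19 genes of mitochondrial transcription and DNA replication 5 rose and 5 fell with +MyoD, among them the mitochondrial deoxynucleoside kinase Dguok (log2FC 1.602 ± 0.24, SE), the transcription factor Tfb2m (-0.97 ± 0.21, SE) and the helicase Twnk (-0.59 ± 0.15, SE). These were 26.3% higher and 26.3% lower, against 22.8% and 18% of all genes. Tfam was the 1 gene of this list called with F/R/C (5.26% higher and 0% lower, against 10.9% and 8.39% of all genes).

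Of the 19 genes tested for mitochondrial RNA processing and stability 15 fell and 0 rose with +MyoD, with a median log2FC of -0.85. The share that fell was 79.0%, against 18% of all genes. Pnpt1 (-1.31 ± 0.15, SE), Trmt10c (-1.29 ± 0.16, SE), Ptcd3 (-1.34 ± 0.17, SE) and Tbrg4 (-1.43 ± 0.18, SE) had the smallest p. The oligoribonuclease Rexo2 was the 1 gene called with F/R/C, lower (-1.04 ± 0.18, SE). These were 0% higher and 5.26% lower, against 10.9% and 8.39% of all genes. The median log2FC was 0.14. Of the 78 genes of the mitochondrial ribosome 39 fell with +MyoD (against the same 18% of all genes), led by Mrpl3 (-1.39 ± 0.13, SE) and Mrpl21 (-1.16 ± 0.13, SE), and Mrpl14 (0.75 ± 0.15, SE) and Mrps34 (0.83 ± 0.19, SE) rose. With F/R/C Mrpl48 (0.69 ± 0.14, SE) and Mrpl44 (0.72 ± 0.15, SE) rose and Mrpl57 (-0.56 ± 0.18, SE) fell (2.56% higher and 1.28% lower, against the same shares of all genes).

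Among the regulators of nuclear mitochondrial programs, Ppargc1a, the coactivator PGC-1alpha, measured 0.250, 0 and 0.205 CPM in MEFs, 0.157, 0.728 and 1.07 CPM in +MyoD and 3.16, 2.08 and 3.92 CPM in +MyoD+F/R/C (log2FC 2.22 ± 0.72, SE, adjusted p = 0.0385 against +MyoD). Its relative Ppargc1b measured 1.28, 2.24 and 1.02 CPM, 2.16, 1.98 and 1.84 CPM and 9.18, 10.2 and 12.0 CPM (log2FC 2.39 ± 0.36, SE, adjusted p = 2.34e-04 against +MyoD). In both the +MyoD+F/R/C libraries were above all others of these 3 groups. Nrf1, the factor of the NRF1 letters, fell from 47.4, 50.4 and 48.7 CPM in MEFs to 23.1, 24.8 and 24.4 CPM in +MyoD (log2FC -1.02 ± 0.16, SE, adjusted p = 8.18e-05) and was at 22.3, 31.0 and 22.8 CPM in +MyoD+F/R/C. Gabpa, an ETS factor of nuclear respiratory genes (-1.05 ± 0.20, SE), and the coactivator Pprc1 (-0.86 ± 0.17, SE) also fell with +MyoD, and the nuclear receptor Ppard rose (1.11 ± 0.11, SE). The corepressor Nrip1 rose with F/R/C (0.63 ± 0.16, SE). The log2FC of Esrra was 0.40 ± 0.16, SE with +MyoD and -0.13 ± 0.16, SE with F/R/C, and that of Esrrg 2.25 ± 0.94, SE and 0.32 ± 0.86, SE, none of them called. In all 3 of the 14 regulators rose and 4 fell with +MyoD (21.4% higher and 28.6% lower, against 22.8% and 18% of all genes), and 3 rose and 0 fell with F/R/C (21.4% higher and 0% lower, against 10.9% and 8.39%).

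Around the chain, the uncoupling protein Ucp2 rose with +MyoD from 6.90, 7.93 and 6.20 CPM to 18.9, 22.7 and 21.3 CPM (log2FC 1.58 ± 0.19, SE, adjusted p = 6.41e-06). Ucp3, the muscle form, was at 0.0585 CPM or less in MEFs and at 0.251, 2.56 and 1.04 CPM in +MyoD (log2FC 5.84 ± 1.19, SE, adjusted p = 8.29e-04). Neither was called with F/R/C. Among 20 electron carriers and subunits outside the name rule 2 rose and 9 fell with +MyoD (10% higher and 45.0% lower, against 22.8% and 18% of all genes). Coq8a, a protein of coenzyme Q synthesis, rose from 0.973, 0.396 and 0.527 CPM to 11.2, 16.6 and 15.6 CPM (log2FC 4.50 ± 0.36, SE, adjusted p = 1.71e-07) and again with F/R/C (1.70 ± 0.29, SE), and Coq9 rose with +MyoD (0.93 ± 0.13, SE). Cytochrome c (Cycs, -1.40 ± 0.17, SE) and the ADP/ATP carrier Slc25a5 (-1.54 ± 0.17, SE) fell with +MyoD.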

How the data were processed

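Poly-A RNA was sequenced single-end from stranded libraries. The submitters' processing notes name bcl2fastq 2.20, fastp 0.20.0, kallisto 0.46.1, GRCm38.p6 and DESeq2. The deposited expected counts are the authors' kallisto estimates per transcript, not normalized, and the deposited TPM values are scaled by transcript length and library by the authors' kallisto run. Mitochondrial mRNAs have short poly-A tails, so poly-A selection affects their share of a library. Transcripts were summed per gene and counts rounded, and 0.236 to 0.327% of counts matched no gene. edgeR 4.0.16 (TMM, quasi-likelihood test, Benjamini-Hochberg adjustment, minimum count 10, minimum total 15) fitted all 15 libraries by condition, and the fit was tested on simulated data. CPM values are TMM-scaled. Isoform shares used TPM, and ratios of sums used counts. Replicate numbers mark the MEF line of 1 embryo: deviations from group means correlated by 0.074 on average within a line (30 pairs) and -0.037 between lines (60 pairs), and each of the 15 libraries correlated best within its line. Centering on group means ties the value between lines to that within a line, so it adds no separate evidence. Alternatives were other scalings, no filter, DESeq2 1.42.0, counts made from TPM, fewer samples, a replicate block and leaving out each library. The members and gene lists were chosen with earlier results of these data known. Named were all 13 mitochondrial genes, the isoform pairs, complex II, per comparison and direction up to 5 called nuclear genes with the largest log2FC or the 3 with the smallest p where fewer than 3 were called, up to 4 genes per list by p, genes against their list's majority and fixed regulators. The other called nuclear genes were named after their values were seen.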

Additional observations from a re-analysis of the deposited data

How the results depend on the processing

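The replicate block on the MEF line gave 2 mitochondrial and 22 nuclear members called in +MyoD against MEFs, 11 and 1 in +MyoD+F/R/C against +MyoD, 8 and 20 in +MyoD+F/R/C against MEFs and 0 in the comparisons with SP or CP, the same counts as without it, and the pairing lost no call of a single member. For +MyoD+F/R/C against +MyoD, counts made from TPM called 7 mitochondrial members and library totals alone called 8 nuclear members. Of all genes these 2 settings called 8.66% and 14.5% higher and 7.38% and 5.15% lower. Leaving out 1 library gave 1 to 2 mitochondrial members called in +MyoD against MEFs, and 7 to 8 mitochondrial and 1 to 3 nuclear members in +MyoD+F/R/C against +MyoD, with 3 nuclear members called without +MyoD replicate 2 or +MyoD+F/R/C replicate 3. The difference in the log2 ratio of mitochondrial to nuclear sums was 0.17 for +MyoD against MEFs and 0.800 for +MyoD+F/R/C against MEFs with summed TPM, and 0.34 to 0.41 for +MyoD against MEFs when 1 library was left out. Its sign turned to -0.0567 for SP without +MyoD+F/R/C+SP replicate 1 (highest 0.43), and to 0.0359 for CP without +MyoD+F/R/C+CP replicate 2 (lowest -0.23). The causes were not tested. Of 894 values of single called members under the alternatives 818 kept the call, 76 lost it and 0 turned in direction. A fit of the 9 libraries with F/R/C alone, chosen after seeing the data, also called 0 members. Adding nuclear copies of mitochondrial genes gave no value, because the files used here list no transcripts of the 7 copies found in the genome. Reads from such copies would be counted to the mitochondrial genes. The 3 lines per condition limit all comparisons, and Cox7a1, Cox8b and Ppargc1a rest on few reads.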

Other observations

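Over all genes tested, 22.8% were called higher and 18% lower with +MyoD, and 10.9% and 8.39% with F/R/C added. Of the 15 genes of fatty acid oxidation 5 rose and 0 fell with +MyoD (33.3% higher and 0% lower), among them Acadvl (log2FC 1.29 ± 0.12, SE), Cpt2 (0.74 ± 0.14, SE), Cpt1a (0.75 ± 0.17, SE) and Acadm (0.63 ± 0.15, SE). With F/R/C the muscle form of carnitine palmitoyltransferase, Cpt1b, rose from 3.35, 3.75 and 5.79 CPM to 18.1, 14.2 and 21.1 CPM (log2FC 2.05 ± 0.26, SE, adjusted p = 6.19e-05), and the liver form Cpt1a fell (-0.91 ± 0.17, SE), as did Acadvl (-0.76 ± 0.12, SE). Of the 21 genes of the tricarboxylic acid cycle and its entry 3 rose and 8 fell with +MyoD (14.3% higher and 38.1% lower). The 3 that rose were pyruvate dehydrogenase kinases, which restrain the entry of pyruvate into the cycle, namely Pdk1 (2.87 ± 0.57, SE), Pdk2 (2.65 ± 0.26, SE) and Pdk4 (1.32 ± 0.24, SE). Idh3a (-1.35 ± 0.14, SE), Dlat (-0.92 ± 0.13, SE) and Dlst (-0.72 ± 0.10, SE) were among those that fell. With F/R/C 0 of the 21 were called by edgeR, with 4 at an unadjusted p under 0.05, against 6327 of all 19331 genes.

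Of the 46 assembly factors tested 7 rose and 8 fell with +MyoD (15.2% higher and 17.4% lower), at or below the 22.8% and 18% of all genes. Cox10 (-1.51 ± 0.21, SE), Ndufaf4 (-1.62 ± 0.26, SE) and Ecsit (-0.84 ± 0.15, SE) were among the falls and Cox14 (1.16 ± 0.18, SE) and Ndufaf3 (1.07 ± 0.31, SE) among the rises. With F/R/C the copper chaperone Sco1 of complex IV rose (0.62 ± 0.15, SE), and the insertase Cox18 fell (-0.60 ± 0.21, SE), with overlap between its groups. Of 11 genes of mitochondrial fission, fusion and removal the mitophagy genes Pink1 (2.36 ± 0.21, SE), Bnip3 (3.0 ± 0.58, SE) and Bnip3l (0.81 ± 0.15, SE) rose with +MyoD, and Opa1 (-0.53 ± 0.10, SE) and Dnm1l (-0.51 ± 0.13, SE) fell (27.3% higher and 18.2% lower, near the same shares of all genes). With F/R/C 0 of the 11 were called by edgeR, with 4 at an unadjusted p under 0.05, against the same 6327 of all 19331 genes.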
